A study of Homo sapiens with 3 samples.

Results

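Single-cell RNA profiles of drug-sensitive CAMA-1 cells called as G1 were compared between spheroids that also held resistant cells (coculture) and spheroids of sensitive cells alone (monoculture). In the deposited annotation of 19237 cells, 4101 are sensitive cells in G1, of which 1138 came from the coculture and 2963 from the monoculture. A cell was kept where the authors' phase call was G1 and their marker grouping named it sensitive, and no other rule was used. Restricting the comparison to G1 removes the cells that the phase call placed in S or G2M, which made up 366 further sensitive cells in monoculture and 921 in coculture.

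CAMA-1 is an estrogen receptor positive luminal breast cancer cell line. The sensitive lineage was labelled with mVenus and the ribociclib-resistant lineage, derived from the same line by long exposure to the drug, with mCherry, so each lineage is a labelled population rather than a set of independent clones. Spheroids were started from 2000 cells at 100% sensitive, 50% sensitive or 0% sensitive, received 1 µM ribociclib in every arm (the labels give DMSO with the drug), and were harvested after 11 days, frozen viably and thawed before 10X Genomics 3′ profiling. Neither an untreated arm nor a replicate library was analysed here, so every comparison below is between 1 library and 1 other library, without a test, and an interval covers counting error only.

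Ribociclib inhibits CDK4 and CDK6, the kinases that phosphorylate RB and so release the E2F factors that switch on S-phase genes. In luminal breast cancer cells cyclin D1 and much of the drive into the cell cycle lie downstream of the estrogen receptor, whose best-known target genes include the trefoil factors and the progesterone receptor. Cells that stop in G1 can still differ in how near they are to S phase, in biosynthesis, and in hormone, growth factor and stress signalling, which is the question that a comparison within G1 addresses.

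The G1 sensitive cells held 82727493 UMIs (unique transcript molecules) in monoculture and 36867890 in coculture, with medians of 26713 and 31963 UMIs and 4538 and 4800 genes per cell. Mitochondrial transcripts made up a median 21.2% of UMIs per cell in monoculture and 19.2% in coculture. The phase scores, which the authors computed from S and G2M gene lists, were higher in coculture although every cell was called G1. The median S score was -0.0938 in monoculture and -0.0710 in coculture, and the median G2M score was -0.165 and -0.0996. The corresponding medians of G1 resistant cells in coculture were -0.0687 and -0.0941. The G1 call was made from these scores, so they describe the cells compared and support nothing further. All 1138 cocultured cells carried at least 1 mVenus UMI and 591 at least 2, against 1991 and 1152 of 2963 cells in monoculture, so the cocultured cells were selected on the label and the monocultured cells were not. No cell of either population carried mCherry. The 2 libraries shared 48 barcode sequences among all their barcodes and 0 among the G1 sensitive cells. The authors' clusters separated the conditions, with 62.7% of monoculture cells in cluster 4 and 22.9% in cluster 8, and 76.3% of cocultured cells in cluster 3, which held 7.66% of the monoculture cells.

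The luminal cell type was checked against markers. All 10 luminal epithelial markers passed the minimum level, and their summed level was 11359 CPM (UMIs of a gene scaled to a fixed total) in monoculture and 14468 in coculture. Their median log2 ratio, coculture over monoculture, was 0.06, with 5 above 0 and 5 below. TFF1, an estrogen receptor target among them, had the highest ratio, at 1.29. Of 6 basal markers MYLK alone passed it, at 31.9 CPM in monoculture and 14.8 CPM in coculture. KRT5, KRT17 and TP63 had 0 UMIs in coculture and at most 5 in monoculture. The basal list summed to 36.92 and 16.65 CPM, and most of what MYLK did not give came from KRT14 and ACTA2, under the minimum level. Of 6 fibroblast markers COL3A1 alone passed it, at 33.5 and 20.02 CPM, while COL1A2, DCN and LUM had 0 UMIs in both populations. The fibroblast list summed to 36.63 and 23.87 CPM, the rest of it from COL1A1 and PDGFRA, under the minimum level. The endothelial markers summed to 0.314 and 0.190 CPM and the immune markers to 0.399 and 0.814 CPM, with KDR and CD3E at 0 UMIs in both populations. The part of MYLK and COL3A1 expression in any difference below was not tested.

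Gene levels were compared as CPM of the UMIs summed over all cells of a population, and a ratio is given as the log2 of CPM plus 1 in coculture over CPM plus 1 in monoculture. A level is therefore a share of the RNA recovered from a population and not an amount per cell. Of 8707 genes that averaged 5 CPM or more over both populations, 257 were at least 1.5-fold higher in coculture and 450 were at least 1.5-fold lower, or 2.95% and 5.17% of the genes compared. The median ratio of all genes was -0.09, with 5405 genes below 0 and 3302 above, and the central 95% of genes lay between -0.73 and 0.63. At least 2-fold differences were found for 74 genes upward and 73 downward. A gene below 5 CPM in either population could pass the 5 CPM minimum through the other. PBK, FADS1, TGFB1, HIST2H2AC and SLPI were among those that did so through coculture, and GADD45A, PIK3IP1, EPOR and SCARA3 among those that did so through monoculture. Counts of list members below are to be read beside the 2.95% and 5.17% of all genes. Higher genes made up 36.4% of those past 1.5-fold, and this share was 47.4% after scaling with TMM factors and 51.0% when mitochondrial and ribosomal protein genes were left out of the library sizes, so the excess of lower genes depends on the scaling. The leading genes at each end included trefoil factors, metallothionein MT2A, interferon-responsive IFI27 and mitotic regulators among the higher, and the fatty acid binding protein FABP7, the hypoxia-responsive ANKRD37 and the calcium-binding S100A1 among the lower.

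**Figure D1:**
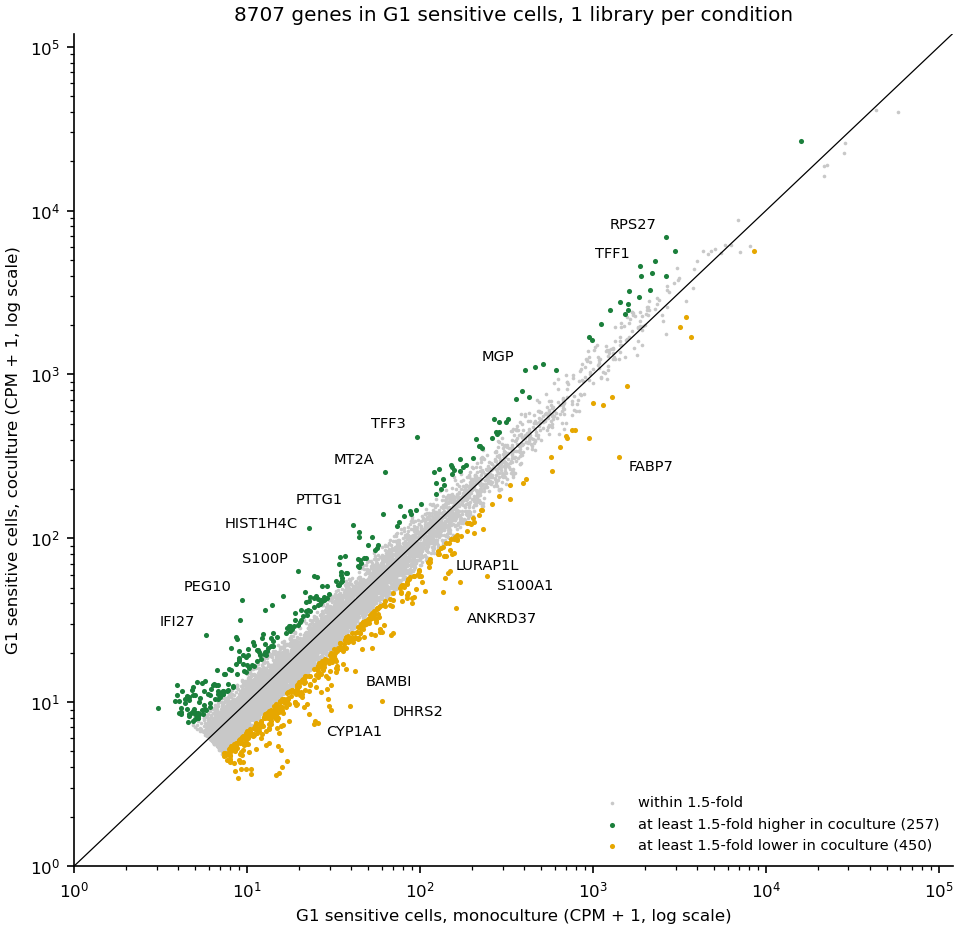
Level of each of 8707 genes in G1 sensitive cells, with monoculture on the x axis and coculture on the y axis (CPM plus 1, both axes logarithmic, 1 point per gene, line of equality in black). The 257 genes at least 1.5-fold higher in coculture are green and the 450 at least 1.5-fold lower are amber, and most genes lie close to the line.

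Estrogen-responsive genes included several that were higher. Of 33 members of the estrogen-induced list that passed the minimum level, 5 were at least 1.5-fold higher in coculture and 2 at least 1.5-fold lower, with a list median of 0.12 against -0.09 for all genes. The higher share was 15.2%, beside 2.95% of all genes, and the lower share 6.06%, near the 5.17% of all genes. TFF3 (chr21:43731777-43735519, GRCh37, minus strand), which encodes a secreted trefoil peptide, was at 94.5 CPM (95% counting interval 92.4 to 96.6) in monoculture and 415.9 CPM (409.3 to 422.5) in coculture, 4.37-fold higher. TFF1, the neighbouring trefoil gene on chromosome 21 and the classical estrogen receptor target in breast cancer cells, was at 1871 CPM in monoculture and 4576 CPM in coculture, 2.45-fold higher. These cocultured levels were close to those of G1 resistant cells in the same library, at 413.2 CPM for TFF3 and 5580 CPM for TFF1. PGR (chr11:100900355-101000544, minus strand), the progesterone receptor, differed in that it exceeded the resistant level as well. It was at 15.2 CPM (14.3 to 16.02) in monoculture, 43.4 CPM (41.3 to 45.6) in cocultured sensitive cells, 23.6 CPM in cocultured resistant cells and 23.4 CPM in resistant monoculture. PRSS23, an estrogen-induced serine protease, was at 10.8 CPM in monoculture and 19.3 CPM in coculture, against 3.94 CPM in cocultured resistant cells.

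The pair of lower members were STC2 and IGFBP5. STC2, which encodes the secreted glycoprotein stanniocalcin 2 and is also induced by ATF4, was at 170.2 CPM in monoculture and 52.7 CPM in coculture, 3.19-fold lower. IGFBP5, which encodes a secreted binding protein for insulin-like growth factors, was at 3683 CPM in monoculture and 1697 CPM in coculture, a ratio of -1.12. ESR1, the estrogen receptor itself, was at 15.5 CPM (14.7 to 16.4) in monoculture and 19.6 CPM (18.2 to 21.1) in coculture, a ratio of 0.32 that did not reach 1.5-fold. The ESR1 ratio was 0.05 within cluster 3 and -0.05 among cells with both phase scores below -0.10. The median of the estrogen-induced list was -0.04 when only genes averaging 50 CPM or more were taken.

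Genes for the secretory products of mammary epithelium passed 1.5-fold in both directions, with 5 of 10 members at least 1.5-fold higher and 3 at least 1.5-fold lower. The list median was 0.32, and -0.20 among members averaging 50 CPM or more. FABP7 (chr6:123100861-123105219, plus strand), which encodes a fatty acid binding protein, ranked next to the lowest ratio of all genes that averaged 10 CPM or more. Its level was 1406 CPM (1398 to 1414) in monoculture and 313.4 CPM (307.7 to 319.2) in coculture, 4.48-fold lower. It was at 15.7 CPM in cocultured resistant cells and 1.16 CPM in resistant monoculture, so this transcript belonged mainly to the sensitive lineage. The level was also uneven among cells. After each cell was thinned to 5000 UMIs, 53.7% of monoculture cells and 33.7% of cocultured cells held a FABP7 UMI (76.9% and 52.3% unthinned), while the share was 0.37% in resistant monoculture, and the 90th percentile cell held 21 UMIs in monoculture and 4 in coculture. SCGB2A2, which encodes mammaglobin A, was at 33.8 CPM in monoculture and 61.4 CPM in coculture. Its ratio of 0.84 became -4.72 among cells with a mitochondrial share under 15% and 3.31 among cells of cluster 3.

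MGP, which encodes matrix Gla protein, was higher in coculture and much higher in the resistant lineage. It was at 401.3 CPM in sensitive monoculture, 1070 CPM in cocultured sensitive cells, 6221 CPM in cocultured resistant cells and 6825 CPM in resistant monoculture. In coculture barcodes with at least 2 mVenus UMIs, mCherry transcripts stood at 4.08 CPM against 53.9 CPM in resistant monoculture, which is the level that a 7.57% share of resistant-cell RNA would give. At the MGP level of all cocultured resistant cells, a 11.98% share would give the whole MGP difference. After 7.57% of their RNA was subtracted the ratio was 0.73 in place of 1.41 for MGP and 1.84 in place of 2.35 for HIST1H4C, which is described with the histones. The mCherry count was 186 UMIs in 136 of 1263 barcodes, whereas the annotated sensitive cells of the coculture held 0. The share thus rests on mCherry in barcodes that are not among the compared cells. The part of resistant-cell RNA in the annotated cells was not tested.

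**Figure D2:**
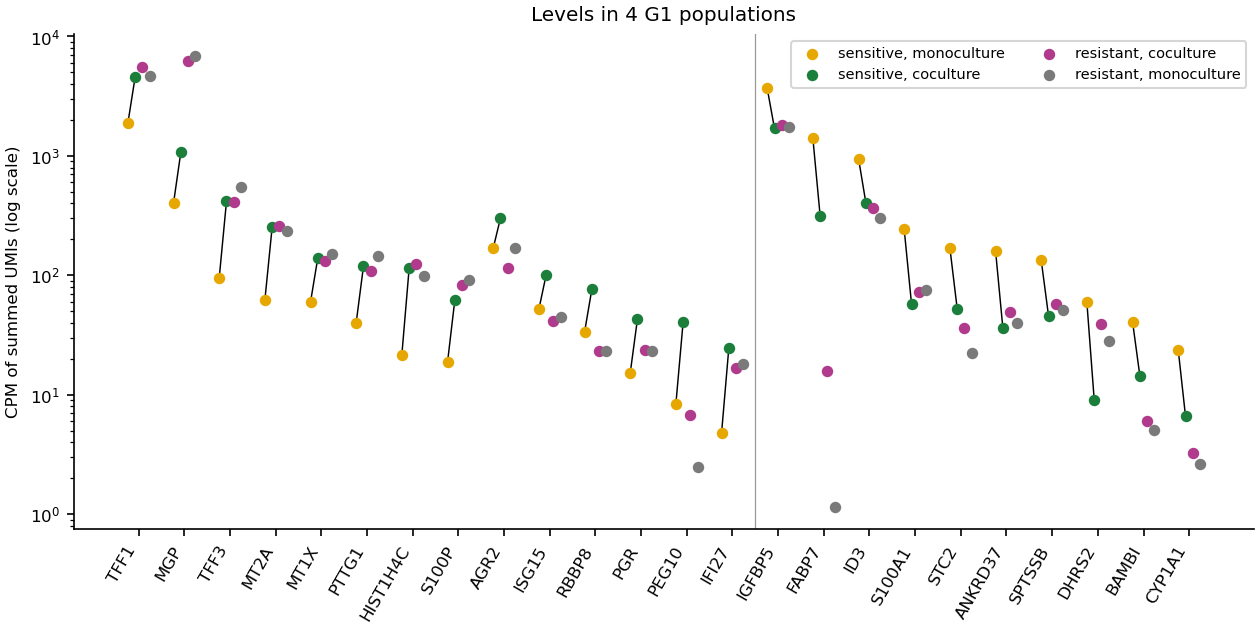
Levels of 24 genes in the 4 G1 populations (y axis, CPM on a log scale, 1 point per population summed over its cells, no replicates). Genes higher in cocultured than in monocultured sensitive cells stand left of the vertical line and lower ones right of it, and black segments join the sensitive populations; PGR, PEG10 and ISG15 in coculture lie above both resistant populations, whereas MGP and S100P lie below them.

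Of the targets of the drug, CDK4 differed little within G1. CDK4 was at 98.5 CPM (96.4 to 100.7) in monoculture and 106.8 CPM (103.5 to 110.2) in coculture, a ratio of 0.12. RB1, whose product these kinases phosphorylate, was at 20.2 CPM (19.3 to 21.2) and 21.7 CPM (20.3 to 23.3), with intervals that overlap. CDK6, the other target, was near absent from both, with 18 UMIs in monoculture and 5 in coculture, too few to compare. Of 18 measured G1 cyclins, CDKs and RB-E2F genes, 0 were at least 1.5-fold higher and 1 (5.56%, near the 5.17% of all genes) was at least 1.5-fold lower. That gene was CCNH, the cyclin of the CDK-activating kinase, at 26.8 CPM in monoculture and 16.03 CPM in coculture. CCNE1, the cyclin that carries cells into S phase, was at 6.80 CPM in monoculture and 8.84 CPM in coculture. Its ratio of 0.34 was -0.42 among cells of cluster 3. Among the CDK inhibitors, CDKN2B was lower in coculture, at 9.94 CPM in monoculture and 5.32 CPM in coculture, and so was CDKN1A, at 24.7 and 14.4 CPM. CDKN3, a phosphatase that is itself expressed with the mitotic genes, was higher, at 20.8 and 34.8 CPM, with a ratio of 0.72 that was -0.62 among cells of cluster 3.

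Mitotic genes, and fewer of the replication genes, were higher in the cocultured G1 cells. Because the phase call used the S and G2M lists, only genes outside them were read as data, and members of the lists are given as description. Of 27 mitotic genes outside the lists, 13 (48.1%, beside 2.95% of all genes) were at least 1.5-fold higher, 0 were at least 1.5-fold lower, and the median was 0.57. PTTG1, the securin that holds separase inactive until anaphase, was at 40.2 CPM in monoculture and 119.5 CPM in coculture, 2.93-fold higher. MYBL2, a transcription factor that drives mitotic genes, was at 8.15 CPM (7.54 to 8.79) and 30.6 CPM (28.8 to 32.4), and PBK, a mitotic kinase, was at 3.03 and 9.17 CPM. Of 29 replication genes outside the lists, 5 (17.2%) were at least 1.5-fold higher and 0 at least 1.5-fold lower, with a median of 0.25. Licensing factor CDT1 was at 5.10 CPM in monoculture and 10.0 CPM in coculture, clamp loader subunit RFC3 at 23.2 and 42.1 CPM, and thymidine kinase TK1 at 11.7 and 21.5 CPM. The G2M list itself had a median of 0.47, with 17 of 37 members at least 1.5-fold higher, and the S list a median of 0.04, with 4 of 25.

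These differences moved with the phase scores, which the G1 call also used. Mitotic and replication genes vary with those scores, so matching on the scores shrinks such ratios by construction. The weighted values are therefore given as description. When monoculture cells were weighted so that their joint distribution of both scores matched the coculture, the median of the mitotic genes was 0.03 and that of the replication genes -0.06. Among cells of cluster 3 the medians were -0.04 and 0.09, although the clusters were made from the same transcripts and so hold cells that resemble each other. PTTG1 had a ratio of 1.55 over all G1 cells, 0.52 after weighting and -0.93 within cluster 3, where MYBL2 and TK1 were also below 0, at -0.25 and -0.31. The genes counted at least 1.5-fold lower decreased from 450 to 265 after weighting and those higher from 257 to 188. TFF3, at 2.05, PGR, at 1.58, FABP7, at -2.19, and ANKRD37, at -2.22, kept ratios close to those over all G1 cells after the weighting, whereas MYBL2, at 0.94 in place of 1.79, and TK1, at 0.07 in place of 0.82, did not.

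The rest of the genes named below were set against the same pair of alternatives. Of 142 named genes past 1.5-fold over all G1 cells, 105 were still past it in the same direction after the weighting and 66 within cluster 3. Among higher genes, the cluster 3 ratio kept its sign but lay under 1.5-fold, from 0.07 for MT2A to 0.57 for RBBP8, for MT2A, FBL, PRSS23, WDR43, CDT1, TGFB1, HIST2H2AC, PBK, COX6C, PA2G4, ISG15, FADS1 and RBBP8. Among lower genes it lay from -0.52 for LAMP1 to -0.08 for HIST1H2BC for LAMP1, CAMK2N1, MYLK, STS, CYP1B1, CDKN1A, CITED2, LAMP2, S100A1, IGFBP5, BNIP3L, ASAH1, PIK3IP1, BIK, ACSL1, YPEL5, CDKN2B and HIST1H2BC. After the weighting, replication and mitosis genes under 1.5-fold included PBK at 0.28, CDT1 at 0.33 and RFC3 at 0.47, and lower genes included CDKN1A at -0.33, CDKN2B at -0.26, BBC3 at -0.14, CEBPB at -0.52 and PIK3IP1 at -0.40. Of the 142, 122 were still past 1.5-fold among cells with under 15% mitochondrial UMIs and 138 after subtraction of resistant-cell RNA at the mCherry share.

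**Figure D3:**
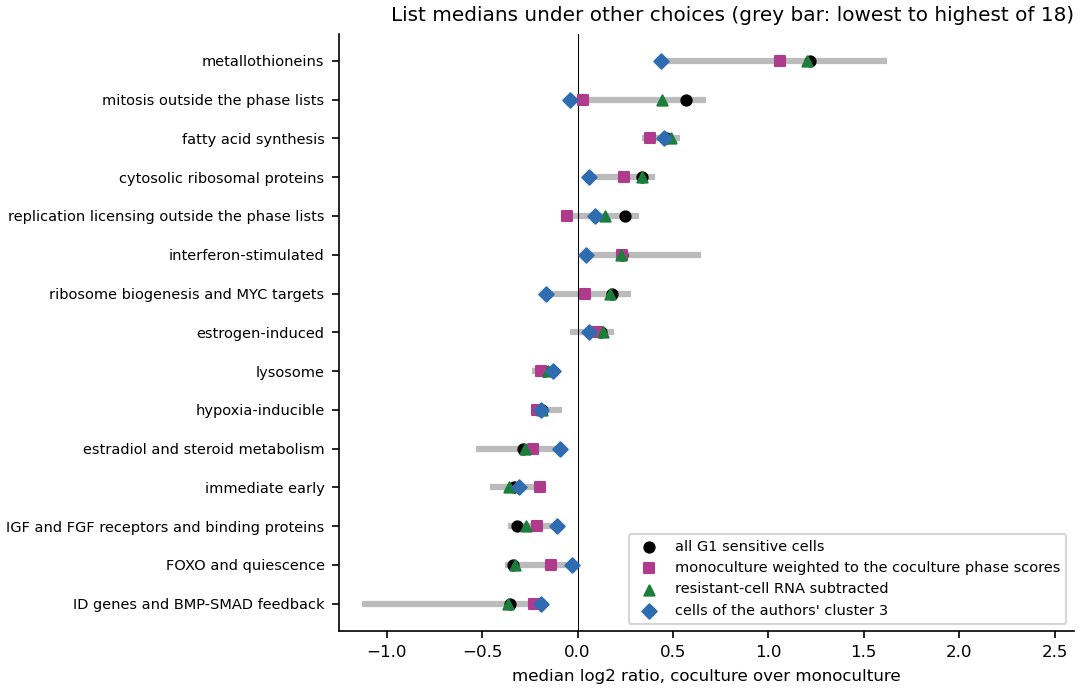
Median log2 ratio, coculture over monoculture, of 15 gene lists (x axis) over all G1 sensitive cells (black), after weighting monoculture cells to the coculture phase scores (magenta), after subtracting resistant-cell RNA at the share given by mCherry (green) and among cells of cluster 3 (blue), with a grey bar from the lowest to the highest of 18 alternatives. The mitotic list moves from 0.57 to 0.03 with the weighting, whereas the fatty acid list stays between 0.34 and 0.54.

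Histone transcripts did not follow the mitotic genes as a group. Of 12 measured replication-dependent histones 2 were at least 1.5-fold higher and 3 at least 1.5-fold lower, with a median of -0.21. HIST1H4C, one copy of histone H4, had the highest ratio of all genes that averaged 10 CPM or more, at 21.7 CPM (20.7 to 22.7) in monoculture and 114.9 CPM (111.4 to 118.4) in coculture, 5.12-fold higher. Its ratio of 2.35 was 1.80 after the weighting to the phase scores and 1.25 within cluster 3. HIST2H2AC was at 2.80 and 9.17 CPM and HIST1H2BC at 47.4 and 29.2 CPM. Histone copies are near-identical in sequence and most of their transcripts lack a poly(A) tail, so the assignment to a copy and the recovery by a 3′ poly(A) method are uncertain.

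Ribosomal protein genes had ratios above 0 almost throughout. Of 79 cytosolic ribosomal protein genes, 77 had a ratio above 0 and the median was 0.34. At least 1.5-fold higher were 17 (21.5%, beside 2.95% of all genes), and 0 were at least 1.5-fold lower. Their summed level was 143179 CPM in monoculture and 191135 CPM in coculture, against 202719 CPM in cocultured and 208202 CPM in monocultured resistant cells. The median thinned cell held 679 ribosomal protein UMIs of 5000 in monoculture and 952 in coculture. The largest ratios belonged to short transcripts, with RPS27 at 2658 and 6887 CPM, RPS28 at 2282 and 4944 CPM, and RPL39 at 1898 and 3972 CPM. These 3 were also higher in coculture than in monoculture within resistant cells, at 7796 against 5861 CPM for RPS27, 4906 against 3684 CPM for RPS28 and 4309 against 2675 CPM for RPL39, and both lineages share the coculture library. Ribosomal protein genes have many processed pseudogenes, which may share reads with them. The list median was 0.24 after the weighting to the phase scores and 0.06 within cluster 3.

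Genes that build ribosomes also lay mostly above 0, with smaller ratios. Of 37 members of the ribosome biogenesis and MYC target list, 32 had a ratio above 0, and the median was 0.18. At least 1.5-fold higher were 3 (8.11%, beside 2.95% of all genes), and 0 were at least 1.5-fold lower. FBL, the methyltransferase of ribosomal RNA, was at 86.5 CPM in monoculture and 146.3 CPM in coculture, PA2G4 at 323.5 and 531.7 CPM, and WDR43 at 42.6 and 67.0 CPM. The median was 0.04 after the weighting to the phase scores and -0.16 within cluster 3. For the 51 nuclear genes of the respiratory chain the median was 0.01. Of these 3 (5.88%) were at least 1.5-fold higher and 1 (1.96%) at least 1.5-fold lower, beside 2.95% and 5.17% of all genes. The thinned median cell nonetheless held 149 of their UMIs in monoculture and 183 in coculture. The 3 members at least 1.5-fold higher added most to that sum, with COX6C, a cytochrome c oxidase subunit, at 2990 CPM in monoculture and 5643 CPM in coculture, and the ATP synthase subunits ATP5F1E at 1833 and 2953 CPM and ATP5ME at 458.7 and 1103 CPM. Of the 13 mitochondrially encoded genes 9 were below 0, near the share over all genes, and the median was -0.22, while MT-ND3, MT-ND6 and MT-ATP8 were at least 1.5-fold higher and MT-ND1 was at least 1.5-fold lower, at 8564 and 5645 CPM. Resistant cells differed in the same direction for several of these transcripts, at 28496 CPM in coculture and 18692 CPM in monoculture for MT-ND3, 404.0 and 265.1 CPM for MT-ATP8, and 1098 and 726.3 CPM for ATP5ME, and both lineages share the coculture library.

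Metallothioneins bind zinc and copper and are induced by metals and stress through the factor MTF1, which recognises metal response elements in their promoters. MT2A (chr16:56642496-56643409, plus strand) was at 61.8 CPM (60.1 to 63.5) in sensitive monoculture, 253.3 CPM (248.1 to 258.4) in cocultured sensitive cells, 259.4 CPM in cocultured resistant cells and 234.8 CPM in resistant monoculture. The cocultured level was thus 4.05-fold higher than in sensitive monoculture and close to that of the resistant lineage. MT1X, from the same cluster of genes on chromosome 16, was at 59.8 CPM in monoculture and 140.3 CPM in coculture, and MT1F at 7.74 and 11.7 CPM, a ratio of 0.54. MT1A, below the minimum level, was at 1.499 and 6.08 CPM, and the other 5 of 9 members (MT1E, MT1G, MT1H, MT1M and MT3) had 0 UMIs in both populations, which at 3 counts allows up to 0.0363 CPM in monoculture and 0.0814 CPM in coculture. Family members are alike in sequence and reads may be shared among them. In thinned cells 19.5% held an MT2A UMI in monoculture and 48.6% in coculture (49.6% and 89.7% unthinned), and 43.7% did in resistant monoculture. The MT2A difference was not seen among cells of cluster 3, where the ratio was 0.07, and was 1.53 after the weighting to the phase scores.

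The promoters of the pair of metallothionein genes past 1.5-fold are printed because both were higher in coculture and carry the motif by which the family is known. Each runs from 250 bases before to 50 bases after the gene start (RefSeq, GRCh38.p14, chr16:56608334-56608633 for MT2A and chr16:56682220-56682519 for MT1X, both on the plus strand), with matches to the metal response element core TGCACNC or TGCGCNC on either strand in capitals. MT2A holds 8 matches and MT1X 4, and 29.3% of 27305 RefSeq promoters of this length hold at least 1 and 7.56% at least 2. A match is a string of letters and was not tested as a binding site.
MT2A: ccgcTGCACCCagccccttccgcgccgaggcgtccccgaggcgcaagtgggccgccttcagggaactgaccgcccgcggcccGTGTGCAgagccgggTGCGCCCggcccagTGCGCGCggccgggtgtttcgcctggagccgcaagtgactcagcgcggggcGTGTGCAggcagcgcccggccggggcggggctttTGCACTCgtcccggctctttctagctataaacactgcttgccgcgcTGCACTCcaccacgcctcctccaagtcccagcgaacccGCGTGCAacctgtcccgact
MT1X: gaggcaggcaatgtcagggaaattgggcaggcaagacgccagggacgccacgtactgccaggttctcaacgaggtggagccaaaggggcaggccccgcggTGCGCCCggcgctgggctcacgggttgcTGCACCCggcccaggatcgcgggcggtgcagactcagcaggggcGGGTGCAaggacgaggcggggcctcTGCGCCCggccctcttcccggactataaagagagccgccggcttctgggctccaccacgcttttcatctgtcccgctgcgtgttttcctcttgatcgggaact

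Interferon-stimulated genes, which encode antiviral effectors and are switched on by interferon receptors through IRF9 and its partners, were higher in coculture in part. Of 21 measured members 7 (33.3%, beside 2.95% of all genes) were at least 1.5-fold higher and 0 at least 1.5-fold lower, with a median of 0.23. IFI27, IFIT1, MX1 and OAS3 lay below 5 CPM in monoculture. They passed the minimum level only through coculture, which favours a count of higher members. IFI27 (chr14:94571182-94583032, plus strand) was at 4.75 CPM (4.29 to 5.24) in monoculture and 24.7 CPM (23.2 to 26.4) in coculture. ISG15, a ubiquitin-like modifier, was at 51.9 CPM (50.4 to 53.5) in monoculture and 101.1 CPM (97.9 to 104.4) in coculture. IFIT1, which binds foreign RNA, was at 2.93 and 11.7 CPM, MX1, an antiviral GTPase, at 3.02 and 7.62 CPM, IFI6 at 26.8 and 42.8 CPM and OAS3 at 4.05 and 7.54 CPM. Unlike the trefoil factors and metallothioneins, these genes were at lower levels in both resistant populations than in cocultured sensitive cells, at 16.7 and 18.3 CPM for IFI27, 41.6 and 45.1 CPM for ISG15, 5.62 and 4.72 CPM for IFIT1 and 2.33 and 2.80 CPM for MX1. Subtraction of resistant-cell RNA therefore left the ratios as large or larger, at 1.03 in place of 0.95 for ISG15. The ratio lay between 1.05 and 2.68 for IFI27 and between 0.74 and 3.45 for IFIT1 over the alternatives, and few cells carried the signal at this depth. An IFI27 UMI was found in 1.52% of thinned monoculture cells and 5.71% of thinned cocultured cells (3.44% and 12.4% unthinned), against 3.36% of resistant monoculture cells. The members STAT2, at 10.6 and 8.08 CPM, and PARP9, at 9.59 and 7.16 CPM, had ratios below 0. Within cluster 3 the list median was 0.04 and the ratio of OAS3 was -0.21.

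Promoters of 4 of the interferon-stimulated genes at least 1.5-fold higher are printed. The core of the interferon-stimulated response element, GAAANNGAAA on either strand, is in capitals (RefSeq, GRCh38.p14, chr14:94110486-94110785 for IFI27, chr10:89392373-89392672 for IFIT1, chr21:41420308-41420607 for MX1 and chr1:1013247-1013546 for ISG15, all on the plus strand). The motif is held by 19 of the 30 list members with a RefSeq promoter, and by 11 of the 16 that also passed the minimum level. The 6 at least 1.5-fold higher that have a promoter hold it, and 3.65% of all 27305 promoters do. These counts are given as description. A match is a string of letters and was not tested as a binding site. In ISG15 the capitals are 2 overlapping matches.
IFI27: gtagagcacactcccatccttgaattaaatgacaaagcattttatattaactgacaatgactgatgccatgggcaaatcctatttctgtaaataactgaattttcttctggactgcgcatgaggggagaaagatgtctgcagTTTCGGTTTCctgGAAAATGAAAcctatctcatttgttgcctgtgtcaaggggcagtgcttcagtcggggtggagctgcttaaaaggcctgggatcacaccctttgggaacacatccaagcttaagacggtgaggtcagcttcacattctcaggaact
IFIT1: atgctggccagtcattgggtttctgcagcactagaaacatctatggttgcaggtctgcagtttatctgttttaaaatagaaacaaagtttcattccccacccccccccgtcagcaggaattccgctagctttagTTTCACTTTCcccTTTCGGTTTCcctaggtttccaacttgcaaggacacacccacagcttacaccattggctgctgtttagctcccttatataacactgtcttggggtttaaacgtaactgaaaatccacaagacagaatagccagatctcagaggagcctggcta
MX1: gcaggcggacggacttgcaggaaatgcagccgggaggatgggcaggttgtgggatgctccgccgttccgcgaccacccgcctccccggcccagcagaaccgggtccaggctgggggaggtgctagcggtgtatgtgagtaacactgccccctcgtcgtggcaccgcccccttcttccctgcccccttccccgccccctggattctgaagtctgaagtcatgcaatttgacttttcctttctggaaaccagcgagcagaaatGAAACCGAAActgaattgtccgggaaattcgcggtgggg
ISG15: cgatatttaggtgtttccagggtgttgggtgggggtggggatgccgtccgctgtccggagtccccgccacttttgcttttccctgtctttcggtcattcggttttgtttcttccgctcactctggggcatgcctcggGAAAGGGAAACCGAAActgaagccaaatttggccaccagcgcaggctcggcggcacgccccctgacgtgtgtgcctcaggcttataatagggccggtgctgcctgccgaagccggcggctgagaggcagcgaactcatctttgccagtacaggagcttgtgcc

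Fatty acid synthesis genes included higher desaturases and had a median of 0.46. Of 13 members 3 (23.1%) were at least 1.5-fold higher and 1 (7.69%) at least 1.5-fold lower, beside 2.95% and 5.17% of all genes. SCD, the desaturase that makes oleate, was at 20.5 CPM (19.5 to 21.5) in monoculture and 45.8 CPM (43.6 to 48.0) in coculture, and FADS1, a desaturase of polyunsaturated fatty acids, at 3.52 and 9.85 CPM. ACSL1, a fatty acyl-CoA synthetase, was lower, at 30.1 and 18.4 CPM. Both desaturases were at similar levels in resistant cells, with SCD at 41.1 CPM in coculture and 45.6 CPM in monoculture. The 23 cholesterol synthesis genes had a median of 0.02 and 0 members past 1.5-fold in either direction, and the ratio of INSIG1, a sterol-regulated gene, was 0.52.

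ID1, ID2 and ID3 are targets of BMP and SMAD signalling whose products block basic helix-loop-helix factors, and all were lower in coculture. ID1 was at 578.7 and 257.2 CPM and ID2 at 91.8 and 42.6 CPM, while ID4 did not pass the minimum level. ID3 was at 950.1 CPM (943.5 to 956.8) in monoculture and 405.9 CPM (399.5 to 412.5) in coculture, 2.34-fold lower, and BAMBI, a decoy receptor of the BMP and TGF-beta family that those signals induce, was at 41.0 and 14.5 CPM. The median of 15 measured members of this list was -0.35. Of these, beside 5.17% and 2.95% of all genes, 4 (26.7%) were at least 1.5-fold lower and 1 (6.67%) at least 1.5-fold higher. That member was the ligand gene TGFB1, at 3.59 and 9.77 CPM. The list summed to 2001 CPM in sensitive monoculture, 1024 CPM in cocultured sensitive cells, 1160 CPM in cocultured resistant cells and 939.6 CPM in resistant monoculture. Per thinned cell, the median was 9 UMIs of 5000 in monoculture and 4 in coculture, and 83.0% of cocultured cells lay below the monoculture median. ID3 had a ratio of -1.21 within cluster 3 and -1.11 after the weighting to the phase scores, close to its value of -1.22 over all G1 cells.

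Growth factor receptors and their modulators held 1 lower receptor gene and an abundant lower binding protein gene. Of 15 genes of IGF and FGF signalling 3 were at least 1.5-fold lower, beside 5.17% of all genes. At least 1.5-fold higher were 0, beside 2.95% of all genes, and the list median was -0.32. The summed level of the list was 4338 CPM in monoculture and 2240 CPM in coculture, of which IGFBP5 gave most. The thinned median cell held 18 and 9 UMIs of the list. FGFR4, a fibroblast growth factor receptor, was at 49.1 CPM in monoculture and 29.7 CPM in coculture, below the 70.8 and 76.9 CPM of cocultured and monocultured resistant cells. PIK3IP1, an inhibitor of PI3 kinase and a FOXO target, was at 8.29 and 3.77 CPM. IGFBP5 had a ratio of -0.29 and FGFR4 of 0.04 within cluster 3.

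Lists tied to quiescence and to acute signalling held members past 1.5-fold in the lower direction only, to be read beside the 5.17% of all genes that were at least 1.5-fold lower and the 5405 of 8707 below 0. The FOXO and quiescence list had a median of -0.34 with 4 of 18 members (22.2%) at least 1.5-fold lower and 0 higher, led by PIK3IP1, CITED2, at 34.7 and 19.4 CPM, and YPEL5, at 51.7 and 31.8 CPM. The immediate early list had a median of -0.34 with 4 of 21 (19.0%) at least 1.5-fold lower and 0 higher, including the AP-1 gene JUNB, at 147.5 and 83.3 CPM, and IER5, at 15.8 and 8.27 CPM. The summed level of that list was nonetheless 2755 CPM in monoculture and 2800 CPM in coculture, although 18 of 21 members were below 0. Of 18 measured p53 targets 3 (16.7%) were at least 1.5-fold lower, namely GADD45A, a stress-induced growth arrest gene at 12.4 and 4.64 CPM, CDKN1A and BBC3, at 14.5 and 9.06 CPM, and the median was -0.19. The MAPK phosphatase genes DUSP1, at 137.3 and 76.6 CPM, and DUSP5, at 13.53 and 6.94 CPM, were also at least 1.5-fold lower. The FOXO list median was -0.14 after the weighting to the phase scores and -0.03 within cluster 3, while that of the immediate early list was -0.20 and -0.31.

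Hypoxia-inducible genes were led by ANKRD37 (chr4:186317175-186321782, plus strand), an ankyrin repeat gene and HIF1 target, at 161.1 CPM (158.3 to 163.8) in monoculture and 36.4 CPM (34.5 to 38.4) in coculture, 4.34-fold lower. Of 26 measured members 5 (19.2%) were at least 1.5-fold lower and 1 (3.85%) at least 1.5-fold higher, beside 5.17% and 2.95% of all genes. The list median was -0.19. NDRG1, a differentiation and hypoxia gene, was at 29.7 and 11.8 CPM and BNIP3L, a mitophagy receptor, at 52.98 and 34.9 CPM. MIF, a cytokine gene, was higher, at 510.0 and 1160 CPM. The summed level of the list went the other way from its median, at 4838 CPM in monoculture and 5631 CPM in coculture, with 22 and 27 UMIs in the thinned median cell and 74.2% of cocultured cells above the monoculture median. The 13 glycolysis genes held 0 past 1.5-fold and had a median of -0.08, beside -0.09 for all genes, with ALDOA at 903.6 and 1111 CPM. ANKRD37 kept a ratio of -2.06 within cluster 3, whereas NDRG1 was at 0.03 there.

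Of 16 measured genes of estradiol and steroid metabolism 5 (31.2%, beside 5.17% of all genes) were at least 1.5-fold lower in coculture. At least 1.5-fold higher were 0, beside 2.95% of all genes, and the median was -0.28. CYP1A1, the aryl hydrocarbon receptor target that hydroxylates estradiol, was at 23.8 CPM (22.8 to 24.9) in monoculture and 6.62 CPM (5.81 to 7.50) in coculture, 3.26-fold lower, and had a ratio of -0.57 after the weighting to the phase scores. CYP1B1, which catalyses a similar reaction, was at 77.7 and 40.4 CPM, and STS, the sulfatase that frees estrone from its sulfate, at 19.7 and 10.1 CPM. HSD17B1, which converts estrone to estradiol, was at 22.1 CPM (21.1 to 23.2) in sensitive monoculture, 15.9 CPM (14.6 to 17.2) in cocultured sensitive cells, 48.6 CPM in cocultured resistant cells and 52.1 CPM in resistant monoculture, a ratio of -0.45 between the sensitive populations. It was past 1.5-fold among cells with at least 2 mVenus UMIs, at -0.78, and after subtraction of resistant-cell RNA, at -0.62 with the mCherry share, and was -0.01 within cluster 3. HSD17B8, which favours the reverse reaction, was at 31.0 and 32.7 CPM with overlapping intervals. Its levels in resistant cells were higher, at 37.4 CPM in coculture and 46.5 CPM in monoculture. CYP19A1, the aromatase, had 0 UMIs in monoculture and 1 in coculture, too few to compare at this depth.

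Of 39 lysosomal genes 33 were below 0, where 5405 of 8707 genes lay in all, and 3 (7.69%) were at least 1.5-fold lower, beside 5.17% of all genes, with 0 at least 1.5-fold higher and a median of -0.18. LAMP1, a lysosomal membrane protein gene, was at 162.8 CPM in monoculture and 98.3 CPM in coculture, LAMP2 at 97.7 and 62.7 CPM, and ASAH1, acid ceramidase, at 133.9 and 87.3 CPM. The thinned median cell held 30 lysosomal UMIs in monoculture and 25 in coculture. In the ATF4 stress list 2 of 25 were at least 1.5-fold lower, STC2 and CEBPB, and 0 were higher, beside 5.17% and 2.95% of all genes, with a median of -0.13. Among 29 endoplasmic reticulum folding genes 1 (3.45%) was at least 1.5-fold lower and 1 (3.45%) at least 1.5-fold higher, beside 5.17% and 2.95% of all genes. HERPUD1, part of the degradation machinery, was lower at 230.1 and 113.4 CPM, and the disulfide isomerase AGR2 was higher at 168.6 and 301.7 CPM. AGR2 was also above both resistant populations, at 114.8 and 168.5 CPM.

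Genes with large single differences lay outside these groups as well. DHRS2 (chr14:24099324-24114848, plus strand), a short-chain reductase gene, was at 59.5 CPM (57.8 to 61.1) in sensitive monoculture, 9.14 CPM (8.19 to 10.2) in cocultured sensitive cells, 39.5 CPM in cocultured resistant cells and 28.4 CPM in resistant monoculture. Its 5.96-fold lower level was the lowest ratio of all genes that averaged 10 CPM or more, and its cocultured level was below all 3 other G1 populations. S100A1 was at 242.6 CPM in monoculture and 57.9 CPM in coculture, whereas its family member S100P was at 18.7 and 62.2 CPM, opposite in direction. PEG10, a paternally expressed gene derived from a retrotransposon, was at 8.35 CPM (7.74 to 8.999) in sensitive monoculture, 41.1 CPM (39.1 to 43.2) in cocultured sensitive cells, 6.81 CPM in cocultured resistant cells and 2.502 CPM in resistant monoculture. RBBP8, a DNA end resection factor, was at 33.4 and 76.3 CPM, against 23.3 and 23.1 CPM in the resistant populations. Within cluster 3 the ratio of S100A1 was -0.31 and that of PEG10 was 0.76, in place of -2.05 and 2.17.

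The level in cocultured sensitive cells was then placed against that of the G1 resistant cells of the same library. The genes were chosen by their distance from sensitive monoculture, which is also a reference point of this placement. That choice favours a resistant level on the coculture side, so the shares describe placement only. Of the 257 higher genes, 140 (54.5%) were at or below the resistant level, 100 (38.9%) exceeded a resistant level that was itself above sensitive monoculture, and 17 (6.61%) were higher while the resistant level was at or below sensitive monoculture. Of the 450 lower genes, 238 (52.9%) were at or above the resistant level, 197 (43.8%) were below a resistant level that was itself lower than sensitive monoculture, and 15 (3.33%) were lower while the resistant level was at or above it. With all cocultured resistant cells, cycling ones included, as the reference, these counts were 182, 59 and 16 for higher genes and 273, 170 and 7 for lower genes. Of the 100 and 197 that passed the resistant level, 11 and 11 did so by at least 1.5-fold. Against both resistant populations at once, 25 of the higher genes were at least 1.5-fold above and 18 of the lower genes at least 1.5-fold below. The 25 include PGR, PEG10, RBBP8, AGR2, IFIT1, MX1, ISG15 and IFI6, and the 18 include DHRS2, FGFR4, JUNB, HERPUD1 and CAMK2N1, a calmodulin kinase inhibitor gene at 84.2 and 45.2 CPM. Within cluster 3 the ratio of FGFR4 was 0.04, in place of -0.71. The cocultured sensitive and resistant cells shared a library, so a value common to that library would place them together, and this was not tested.

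Distributions over cells showed how far the populations overlapped. The cells were thinned to 5000 UMIs each, which left out 0 cells. Of 37 gene lists, the median cocultured cell lay outside the 25th to 75th percentile of monoculture cells for 4. It lay above for cytosolic ribosomal proteins and the nuclear respiratory chain, and below for the ID and BMP list and the IGF and FGF list. For ribosomal proteins 88.6% of cocultured cells lay above the monoculture median. For the interferon list the medians were 4 UMIs in monoculture and 5 in coculture, and the 90th percentiles were 8 and 11. For the mitotic genes the medians were also 4 and 5, with 90th percentiles of 8 and 11. The estrogen-induced list had medians of 51 and 48 UMIs, opposite in direction to its median gene ratio, and 90th percentiles of 90 and 101. Its summed level, IGFBP5 included, was 10882 CPM in monoculture and 11655 CPM in coculture. TFF1 itself had a median of 3 UMIs in monoculture and 10 in coculture, and 75.7% and 96.5% of thinned cells held at least 1 (93.9% and 100% unthinned).

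**Figure D4:**
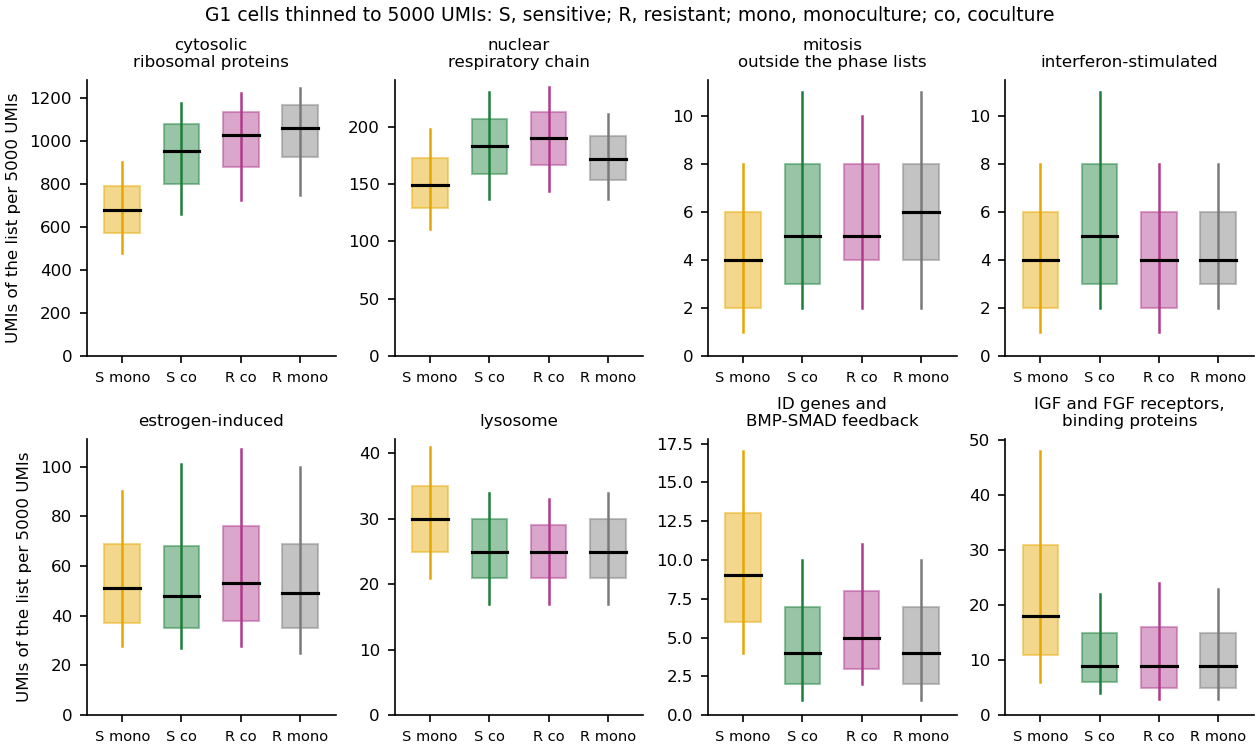
UMIs of 8 gene lists per G1 cell thinned to 5000 UMIs (y axis, linear, from 0) in the 4 populations, with the median as a black line, the 25th to 75th percentile as a box and the 10th to 90th percentile as a vertical line, all over cells. For ribosomal proteins and the ID and BMP list, the median cocultured sensitive cell (952 and 4 UMIs) lies nearer to the resistant populations than to the sensitive monoculture (679 and 9). For the interferon list it does not, with 5 UMIs against 4 in sensitive monoculture and in both resistant populations.

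The remaining lists each held 3 members or fewer past 1.5-fold. In small lists these can be shares above the 2.95% higher and 5.17% lower of all genes, as for S100 proteins with 18.2% lower. Medians were 0.01 for the proteasome (33 genes, 0 past 1.5-fold), 0.07 for heat shock genes (14 genes, 1 lower), 0.09 for MHC class I presentation (12 genes, 1 higher and 1 lower), -0.01 for luminal transcription factors and receptors (21 genes, 2 higher), -0.13 for luminal keratins and junctions (24 genes, 1 higher and 2 lower) and -0.05 for S100 proteins (11 genes, 1 higher and 2 lower). The 2 higher members of the luminal regulator list were PGR and AGR2, and AGR2, a disulfide isomerase gene, is neither a transcription factor nor a receptor gene. The BCL2 family had a median of -0.23 with 3 of 13 (23.1%) lower, the pro-apoptotic BIK at 24.3 and 14.8 CPM, BBC3 and BNIP3L. MAPK feedback genes had a median of -0.18 with 2 of 7 (28.6%) lower. Cell-to-cell and surface signals had a median of -0.30, which was 0.01 after the weighting to the phase scores. Of 11 members 1 was higher, the growth factor gene MDK at 11.7 and 19.3 CPM (a ratio of 0.68 that was -0.30 within cluster 3). Another 1 was lower, the ligand gene GAS6 at 12.7 and 6.64 CPM.

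**Figure D5:**
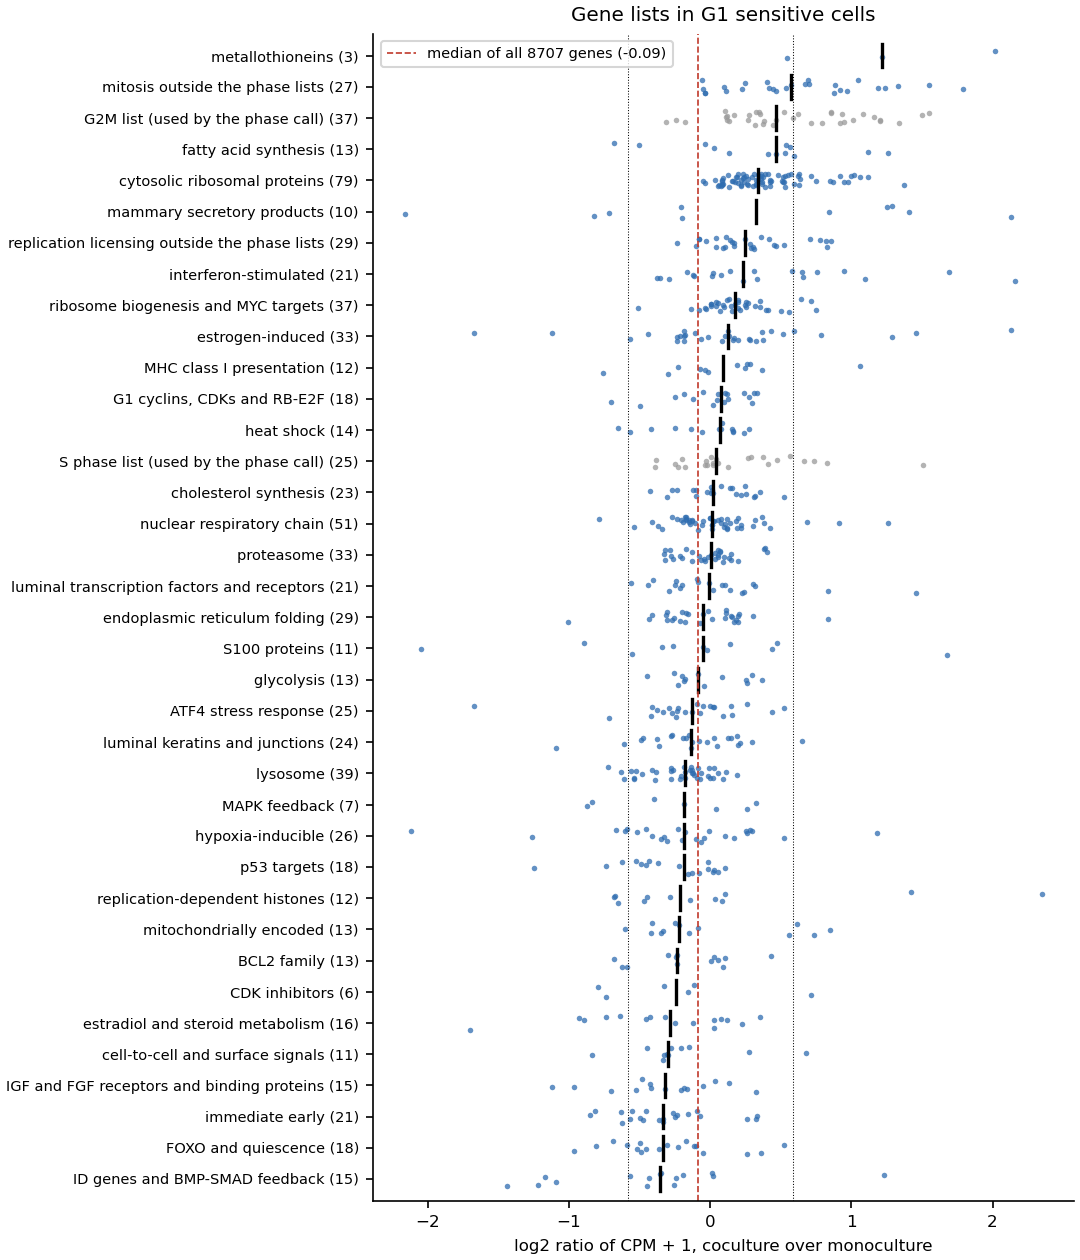
Log2 ratio, coculture over monoculture, of each gene averaging 5 CPM or more in 37 lists (x axis, 1 point per gene, number of genes in brackets, black bar for the list median), ordered by median. The dashed line is the median of all 8707 genes (-0.09), dotted lines mark 1.5-fold and grey points belong to the lists that the phase call used; metallothioneins and mitotic genes lie furthest right and the ID and BMP list furthest left.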

How the data were processed

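Single-cell libraries of 3 spheroid arms were analysed, 1 library each. The authors aligned reads with Cell Ranger 3.0.2 to GRCh37, per the labels, and deposited unnormalized UMI counts per gene and barcode. They also deposited an annotation with S and G2M scores, the percent of mitochondrial UMIs, counts, clusters and marker groups. Their methods state limits on genes, UMIs and mitochondrial percent, the removal of predicted doublets with Scrublet, and a minimum of 2 UMIs of either label, which the annotated cells do not all meet. A further 8 annotation columns were not used. The gene lists, marker lists and compared cells were chosen with earlier results of these data known.

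Counts were summed over the cells of a population, over 22492 gene symbols, and divided by their total to give CPM, so that all populations have 1 common total. Ratios are log2 with a pseudocount of 1 CPM, over 8707 genes that averaged 5 CPM or more, and a difference of at least 1.5-fold was counted. With 1 library per condition no test was made. Intervals are 95% exact Poisson for CPM and exact binomial for shares of cells, and they cover counting error only. Depth was 82727493 UMIs in monoculture and 36867890 in coculture. Cells were thinned to 5000 UMIs for per-cell values. In the weighting to phase scores, monoculture cells were weighted in 19 bins of both scores (width 0.05), which used 2920 cells with an effective number of 1100. Gene positions are GRCh37, from a lifted GENCODE annotation, and promoters are RefSeq GRCh38.p14.

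Named genes were the 20 highest and 20 lowest ratios among genes averaging 10 CPM or more, the 3 largest absolute ratios of each list, 8 genes on which the study turns, and the 5 largest of each class against resistant cells. Metallothioneins and the 25 and 18 genes outside all other populations were added to these, and STAT2, PARP9, ID1, ID2, ID4, ATP5F1E, MT-ND1 and markers of the marker lists were named outside the rule, all after values were seen. Alternatives were other pseudocounts and filters, TMM factors from edgeR 4.0.16, other cell subsets, subtraction of resistant-cell RNA and a 2-fold limit. Scrublet scores recomputed with scanpy 1.11.5 were above 0.25 for 38 monoculture and 26 coculture cells, whose removal was 1 of these. The code was tested on simulated data (Python 3.11.15, R 4.3.3). A small number of genes are not reported here.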

Additional observations from a re-analysis of the deposited data

Results flagged for a closer look

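Among the 142 named genes past 1.5-fold in sensitive cells, 10 had an at least 1.5-fold difference of the opposite direction between coculture and monoculture in G1 resistant cells. The share over all genes is not given, so the count is not read as a feature of either lineage. The difference between lineages was not tested. FABP7, a fatty acid binding protein gene, had a ratio of -2.16 in sensitive and 2.96 in resistant cells, where it was at 15.7 CPM in coculture and 1.16 CPM in monoculture. STC2, the stanniocalcin 2 gene, had -1.67 and 0.69, with resistant levels of 36.5 and 22.3 CPM. CLEC3A, a C-type lectin gene, had -1.72 in sensitive cells, at 23.4 CPM in monoculture and 6.401 CPM in coculture, with resistant levels of 1.03 CPM in coculture and 0.287 CPM in monoculture. MAB21L4 had 1.42 in sensitive cells, at 7.04 and 20.4 CPM, with resistant levels of 13.2 CPM in coculture and 20.7 CPM in monoculture. The other 6 were lower in cocultured sensitive cells and higher in cocultured resistant cells, with sensitive and resistant ratios of -0.74 and 0.75 for the CDK inhibitor gene CDKN1A, -0.82 and 0.76 for CLU, the clusterin gene (-0.11 in sensitive cells of cluster 3), -0.93 and 0.61 for CYP1B1, -0.89 and 0.59 for STS, -1.06 and 0.67 for MYLK and -0.72 and 1.39 for COL3A1, the last at 2.45 CPM or less in resistant cells. The resistant levels of FABP7, CLEC3A, COL3A1 and MYLK in coculture were low beside those of cocultured sensitive cells (MYLK at 2.31 and 14.8 CPM), and the part of sensitive-cell RNA in resistant barcodes was not tested. All these comparisons share the coculture library, which is 1 library.

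Transcripts of the mCherry label, which is not part of the gene comparison, were counted at 4.084 CPM in coculture barcodes with at least 2 mVenus UMIs, as 186 UMIs in 136 of 1263 barcodes. Their level in the resistant monoculture was 53.93 CPM. The annotated G1 sensitive cells held 0 mCherry UMIs, so those 136 barcodes are not among the compared cells.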

How the results depend on the processing

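Of 19 alternatives, those on the filter, fold, pseudocount, phase scores and cluster moved a count of genes past 1.5-fold by more than 1.5 times. The limit of 15% mitochondrial UMIs moved the counts less in ratio, to 225 higher, 668 lower and 893 in all. Against 257 higher, 450 lower and 707 in all, there were 456 higher and 1063 in all with a minimum of 50 UMIs, 84 higher, 101 lower and 185 in all with a minimum of 50 CPM, 74, 73 and 147 at 2-fold, 248 lower and 426 in all with a pseudocount of 5 CPM, and 265 lower and 453 in all after weighting to the phase scores. A further 3 of them were chosen after seeing the data, namely cells of cluster 3, where 250 were lower, both scores below -0.10, and a resistant-RNA share set by MGP. The lists with a median at least 0.2 from that of all genes numbered 15, but 7 after the weighting and 7 in cluster 3. The lists whose median cocultured cell lay outside the monoculture quartiles numbered 4, but 7 at 10000 UMIs and 11 without thinning.

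Of 142 named genes past 1.5-fold, 23 changed sign somewhere, 21 of them in cluster 3. The cluster 3 ratios were -0.0330 for ANP32E, -0.609 for BIRC5, 0.188 for CAPN2, -0.619 for CDKN3, -0.158 for FAM216A, 0.0392 for FGFR4, 0.309 for HGD, 0.343 for KIAA1324, -0.299 for MDK, -0.500 for MKI67, -0.248 for MYBL2, 0.0271 for NDRG1, -0.210 for OAS3, -1.03 for PCLAF, -0.975 for PHF19, -0.926 for PTTG1, -0.188 for ST6GALNAC4, -0.306 for TK1, 0.0149 for TMEM45B, -0.645 for TYMS and 0.194 for WNT6. The other reversals were CAPN2 at 0.109 after the weighting, MKI67 at -0.0784 with the MGP share, SCGB2A2 at -0.0374 among cells with at least 2 mVenus UMIs, and, among cells with under 15% mitochondrial UMIs, SCGB2A2 at -4.72, KRT81 at -0.528 and MDK at -0.246. The cause was not tested. No paired analysis was possible because each condition has 1 library, so the error between libraries is unknown and a genuine library effect cannot be told apart from the culture condition. At 3 counts, a gene with 0 UMIs could still be at 0.0363 CPM in monoculture and 0.0814 CPM in coculture.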

Other observations

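Other genes stood above or below all 3 other G1 populations in cocultured sensitive cells. SLITRK6, a neuronal-type membrane protein gene, was at 5.42 CPM in sensitive monoculture, 11.9 CPM in cocultured sensitive cells, 2.95 CPM in cocultured resistant cells and 2.41 CPM in resistant monoculture. ADRA2A, the alpha-2A adrenergic receptor gene, was at 23.5, 37.0, 7.74 and 5.94 CPM in the same order, and SLPI, a secreted leukocyte protease inhibitor gene, at 3.40, 9.47, 4.32 and 3.96 CPM. On the lower side, EPOR, the erythropoietin receptor gene, was at 8.17 CPM in sensitive monoculture, 2.90 CPM in cocultured sensitive cells, 5.61 CPM in cocultured resistant cells and 6.09 CPM in resistant monoculture. SCARA3, a scavenger receptor gene, was at 8.41, 4.12, 10.4 and 7.93 CPM in that order. SLPI passed the minimum level of 5 CPM only through cocultured sensitive cells, and EPOR and SCARA3 only through sensitive monoculture. Within cluster 3 the ratio of ADRA2A was 0.33 in place of 0.63 and that of SCARA3 was -0.56 in place of -0.88. Further genes among the 20 lowest ratios were the sphingomyelin phosphodiesterase-like gene SMPDL3A at 29.5 CPM in monoculture and 8.002 CPM in coculture, the phospholipid flippase gene ATP8A2 at 28.8 and 8.41 CPM, and the fatty acid hydroxylase gene CYP4B1 at 21.8 and 7.51 CPM. In cluster 3 the ratio of ATP8A2 was -0.80 in place of -1.66 and that of CYP4B1 was -0.87 in place of -1.42.

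Cycling sensitive cells (called S or G2M) come from the same libraries, so their values are given beside those of G1 and are not independent of them. TFF3 was at 86.2 CPM in monoculture and 334.5 CPM in coculture in cycling cells, FABP7 at 1349 and 262.6 CPM, ANKRD37 at 117.2 and 21.9 CPM, ID3 at 864.3 and 367.6 CPM, and PGR at 11.5 and 35.3 CPM. The ratio was 1.27 for TFF1 in cycling cells and 1.29 in G1, and 2.21 and 2.16 for IFI27. Mitotic genes had other values, with PTTG1 at 477.7 CPM in monoculture and 367.5 CPM in coculture, a ratio of -0.38 in cycling cells beside 1.55 in G1, and MYBL2 at 0.36 beside 1.79. MT2A was at 348.4 and 596.3 CPM in cycling cells, above both G1 levels, with a ratio of 0.77 beside 2.02 in G1. The difference between G1 and cycling cells was not tested.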
